A study of Mus musculus with 56 samples.

Results

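The 50 genes described here are transcribed when a cell copies its DNA or divides, and they are the usual transcript readout of proliferation. They were chosen by name, 29 for mitosis and 21 for S phase, and each of the 50 was present in both deposited tables, out of 52636 genes in the heart table and 57010 in the table of bone, muscle and skin. The mitosis genes were Mki67, Top2a, Cdk1, Ccna2, Ccnb1, Ccnb2, Aurka, Aurkb, Plk1, Birc5, Tpx2, Cenpa, Cenpe, Cenpf, Ndc80, Bub1, Bub1b, Ttk, Cdc20, Ube2c, Kif11, Nusap1, Hmmr, Stmn1, Kif20a, Kif23, Prc1, Racgap1 and Anln. The S phase genes were Cdc6, Mcm2 to Mcm7, Cdc45, Gins2, Pcna, Chaf1b, Uhrf1, Tipin, Rrm1, Rrm2, Tyms, Tk1, Ccne1, Ccne2, E2f1 and E2f8.

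RNA was sequenced in bulk from monocytes and macrophages sorted out of 4 injured mouse tissues, with poly(dT) primers and molecular identifiers, in 56 libraries of 16 groups. The injuries were myocardial infarction in heart, a cranial defect in bone, volumetric loss in muscle and a full-thickness punch in skin, and each mouse had an injury in 1 tissue only. The depleted arm was Foxp3(DTR/GFP) mice, in which cells expressing Foxp3, the regulatory T cells, carry the diphtheria toxin receptor. The control arm was wild type C57BL/6J. Mice of both arms were 10 weeks old and received 20 ng/g diphtheria toxin intraperitoneally, so that genotype and depletion went together and toxin was shared. Each arm had 3 libraries in heart at days 4 and 7, 5 in bone at day 7, 3 in bone at day 10, 3 in muscle at days 4 and 7, and 4 in skin at days 4 and 7. The labels give bone days 7 and 10, while the series text names days 4 and 7, and the labels were followed. Whether the libraries of a group came from different mice is not stated, and p-values therefore measure only the spread among these samples, which may be technical.

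A dividing cell first licenses its replication origins. Cdc6 loads the ring of Mcm2 to Mcm7, and Cdc45 and the GINS complex turn that ring into the working helicase. Pcna is the sliding clamp of the polymerases, and Rrm1, Rrm2, Tyms and Tk1 supply deoxynucleotides. Cyclin E and E2F factors drive this step. Later the kinase Cdk1, with cyclins A and B, starts mitosis. Aurora and polo kinases, kinetochore proteins and spindle motors then separate the chromosomes, and Cdc20 and Ube2c direct the destruction of cyclin B. Macrophages in injured tissue come from recruited monocytes and from resident cells, and both can divide locally. In bulk samples, fewer dividing cells and less RNA of these genes per dividing cell cannot be told apart.

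The classes are known for different promoter letters. Mitosis genes often hold the cell cycle homology element, searched here as TTTGAA or TTTAAA, beside CCAAT boxes. S phase genes often hold E2F sites, searched here as TTCCCGC or TTGGCGC. Both strands were searched, TTTAAA reads the same on both, and no pair of these motifs was required to be apart. RefSeq promoters of GRCm38.p6, from 250 bases before to 50 after each listed start, were found for 41 of the 50 genes, in 44 promoters. TTTGAA or TTTAAA was present in 92% of 25 mitosis promoters, 42.1% of 19 S phase promoters and 27.6% of all 32851 promoters in the table. The E2F letters were present in 12% of the mitosis promoters, 52.6% of the S phase promoters and 6.81% of all promoters, and CCAAT was present in 84.0%, 68.4% and 37.4%. A match describes the letters of the window and is not evidence of binding.

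The 6 promoters below belong to genes named in the results, 3 of mitosis and 3 of S phase, and are examples of how the letters can differ. They do not stand for every gene of a class: the Pcna, Tyms, Rrm2 and Ccne1 windows hold no E2F match. Capitals mark the searched letters of the 3 motifs, or their reverse complements, so that ATTGG stands for a CCAAT box. Each is printed 5′ to 3′ on the gene's strand. Top2a lies at chr11:99024140-99024439 on the minus strand, Cdk1 at chr10:69352863-69353162 on the minus strand, Ccnb2 at chr9:70421505-70421804 on the minus strand, Mcm3 at chr1:20820263-20820562 on the minus strand, Mcm5 at chr8:75109259-75109558 on the plus strand and Mcm6 at chr1:128359656-128359955 on the minus strand.
Top2a: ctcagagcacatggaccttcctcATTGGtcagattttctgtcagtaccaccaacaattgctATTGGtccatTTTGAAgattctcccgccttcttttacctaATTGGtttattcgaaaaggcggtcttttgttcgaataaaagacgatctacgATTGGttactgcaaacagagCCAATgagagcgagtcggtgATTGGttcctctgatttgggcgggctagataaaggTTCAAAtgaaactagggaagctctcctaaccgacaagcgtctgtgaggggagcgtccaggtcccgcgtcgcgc
Cdk1: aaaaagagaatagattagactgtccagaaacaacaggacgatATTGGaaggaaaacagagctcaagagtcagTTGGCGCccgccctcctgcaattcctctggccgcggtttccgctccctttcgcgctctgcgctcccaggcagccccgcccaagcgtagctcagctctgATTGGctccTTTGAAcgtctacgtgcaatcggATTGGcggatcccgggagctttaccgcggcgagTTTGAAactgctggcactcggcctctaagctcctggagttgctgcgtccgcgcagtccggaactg
Ccnb2: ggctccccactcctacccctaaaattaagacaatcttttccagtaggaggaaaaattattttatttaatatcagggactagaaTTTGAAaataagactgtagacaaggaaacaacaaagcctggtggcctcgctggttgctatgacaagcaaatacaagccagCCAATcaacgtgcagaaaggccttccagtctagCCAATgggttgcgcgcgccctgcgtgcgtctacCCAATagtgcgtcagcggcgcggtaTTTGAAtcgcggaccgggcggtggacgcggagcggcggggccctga
Mcm3: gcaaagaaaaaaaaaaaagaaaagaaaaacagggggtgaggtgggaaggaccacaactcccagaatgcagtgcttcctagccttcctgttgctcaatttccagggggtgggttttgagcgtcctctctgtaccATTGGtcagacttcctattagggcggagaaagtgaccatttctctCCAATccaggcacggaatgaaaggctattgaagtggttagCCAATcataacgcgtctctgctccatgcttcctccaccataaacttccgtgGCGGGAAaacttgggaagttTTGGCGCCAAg
Mcm5: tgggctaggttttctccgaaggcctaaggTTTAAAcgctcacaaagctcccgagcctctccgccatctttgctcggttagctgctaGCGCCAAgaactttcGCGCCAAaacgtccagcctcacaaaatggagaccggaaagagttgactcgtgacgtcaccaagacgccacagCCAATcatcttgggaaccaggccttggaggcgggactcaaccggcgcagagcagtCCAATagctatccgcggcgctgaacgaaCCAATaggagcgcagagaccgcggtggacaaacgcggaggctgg
Mcm6: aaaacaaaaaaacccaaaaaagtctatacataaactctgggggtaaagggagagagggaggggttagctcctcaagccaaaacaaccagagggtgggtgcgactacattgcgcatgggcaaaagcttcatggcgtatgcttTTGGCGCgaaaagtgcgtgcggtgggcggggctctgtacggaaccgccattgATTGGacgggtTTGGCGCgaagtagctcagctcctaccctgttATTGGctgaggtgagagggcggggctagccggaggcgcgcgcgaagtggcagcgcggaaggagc
The Top2a, Cdk1 and Ccnb2 windows each hold 2 copies of the mitosis letters, and the Mcm3 and Mcm6 windows hold none. Mcm5 holds 1 copy, far from the start, and 2 E2F matches. Cdk1 also holds 1 E2F match.

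The depth was 2642452 to 9788811 counts per heart library. Bone libraries held 2318223 to 5835064 counts, muscle libraries 3439649 to 6397377 and skin libraries 3013740 to 5392902. Levels are CPM, which scales the counts of a gene to the library total. Foxp3 itself, the gene of the depleted cells, checks nothing here because those cells were not the ones sorted: it was at 0 in all 12 heart libraries and in 12 of 22 libraries of each arm elsewhere. All 12 markers of monocytes and macrophages were detected in every group. The 3 control libraries of heart at day 4 stood apart: 58 genes, many of them ribosomal protein genes, were at least 4-fold higher (on CPM + 1) in each of them than in any of the other 9 heart libraries, against 0 genes for each other heart group. Stmn1 is among those 58. Log2 changes, standard errors (SE) and adjusted p come from edgeR's quasi-likelihood test, adjusted over all tested genes by Benjamini-Hochberg, and a gene is called at an adjusted p under 0.05. The heart and the other tissues come from separately made tables, so levels were compared only within a table.

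Of the 50, 46 had their highest group mean in depleted bone at day 7, 3 in depleted bone at day 10 and 1 in depleted muscle at day 4. The lowest group mean was in depleted skin at day 4 for 44 genes. In heart, 25 genes were highest in controls at day 4 and 20 in depleted libraries at day 4. The summed level of all 50 was 3872 to 5613 CPM in the 5 depleted bone libraries at day 7, and 354.9 to 614.7 CPM in the 4 depleted skin libraries at day 4. These orderings are descriptions of means and carry no test.

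**Figure D1:**
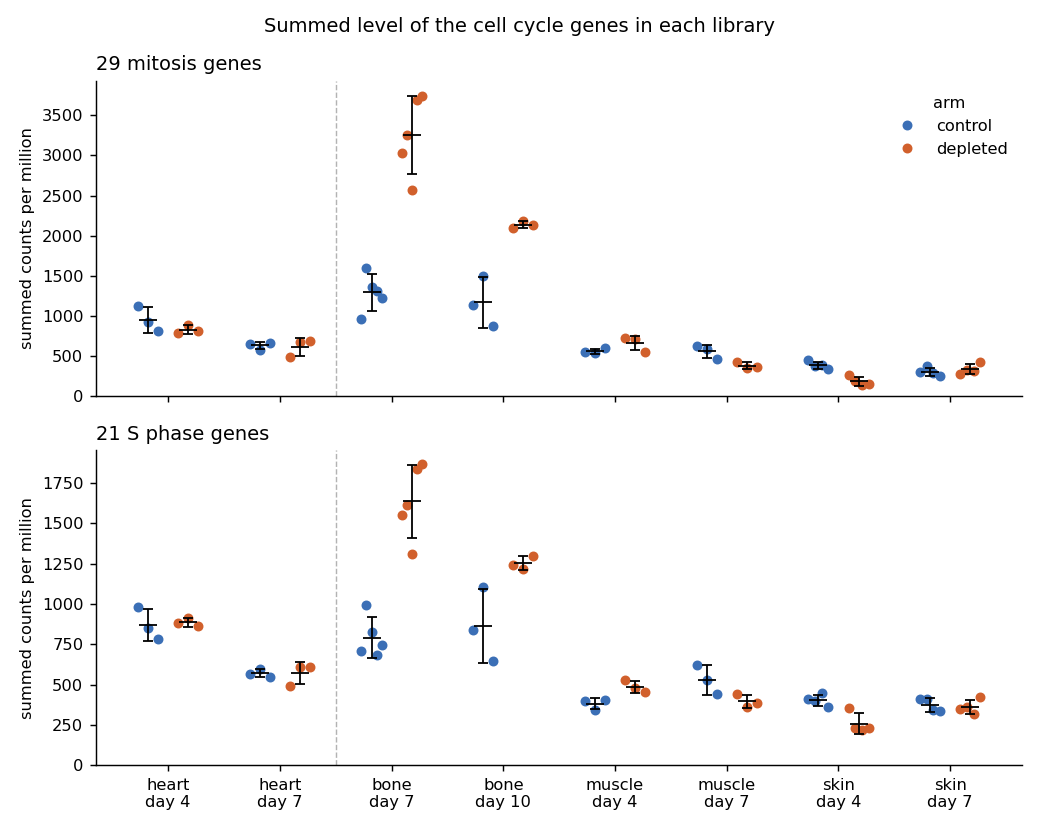
Summed CPM of the 29 mitosis genes and of the 21 S phase genes in each library (points) of the 16 groups, with group mean and SD. Depleted bone at day 7 has the highest mean in both panels and depleted skin at day 4 the lowest, although the highest library of that skin group (257.3 and 357.4 CPM) lies above some libraries of other groups; heart comes from a separate table.

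Depletion went with higher levels of nearly all of these genes in bone at day 7. Of 50 genes, 48 were higher and 0 lower, where 11% of all tested genes were called higher and 23.6% were called in either direction. The median log2 change was 1.16 over the 50, 1.32 over the mitosis genes and 1.09 over the S phase genes. For 45 of the 50 the 5 depleted and 5 control libraries did not overlap, which held for 14.6% of all tested genes. The 2 genes not called were Gins2, a GINS subunit (0.68, adjusted p = 0.0868), and E2f1, an activating E2F factor (-0.04, adjusted p = 0.933).

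Top2a, the topoisomerase that untangles sister chromatids, read 70.8, 152.1, 94.7, 103.7 and 76.4 CPM in control bone at day 7. It read 350.6, 324.6, 272, 400.7 and 340.5 CPM in the depleted libraries. Every depleted library was above every control, and the change was 1.72 (SE 0.16, adjusted p = 4.75e-07).

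Mki67, the common proliferation marker, read 18.9, 35.7, 28.8, 43.9 and 37.5 CPM in controls and 104.3, 93.0, 98.1, 116.2 and 82.7 CPM after depletion, again without overlap (log2 change 1.54, SE 0.19, adjusted p = 7.6e-06). Cdk1, the mitotic kinase, read 19.9, 31.3, 25.5, 29.3 and 34.1 CPM against 55.8, 65.6, 44.5, 72.3 and 84.4 CPM (1.16, SE 0.24, adjusted p = 0.00155). The B-type cyclin Ccnb2 had the wider gap, 25.8 to 41.1 CPM against 74.8 to 125.9 CPM (1.48, SE 0.20, adjusted p = 1.52e-05). In both genes every depleted library was above every control.

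Nusap1, which bundles spindle microtubules, averaged 85.0 CPM in controls and 245.5 CPM after depletion (1.48, SE 0.14, adjusted p = 3.91e-07), the smallest adjusted p among the 50 genes. The kinetochore motor Cenpe averaged 15.8 and 52.3 CPM (1.67, SE 0.18, adjusted p = 1.62e-06). Birc5, the survivin subunit of the chromosomal passenger complex, was 101.3 ± 15.6 CPM in controls and 231.4 ± 40.6 CPM after depletion (SD, n = 5 each, log2 change 1.14, adjusted p = 0.000142). Stmn1, which destabilises microtubules, moved less: 92.4 to 144.1 CPM against 182.4 to 308.0 CPM (0.93, SE 0.19, adjusted p = 0.000943). All 7 kinetochore and checkpoint genes (0.83 to 1.67), all 5 cytokinesis genes (0.92 to 1.54) and all 4 of Cdk1 and its cyclins (1.16 to 1.48) were called higher, with the range of log2 changes in parentheses.

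Of the 21 S phase genes 19 were higher. Rrm2, the inducible ribonucleotide reductase subunit, read 64.3, 85.9, 58.7, 57.9 and 65.6 CPM in controls and 158.8, 176.0, 135.5, 217.0 and 238.0 CPM after depletion (1.44, SE 0.17, adjusted p = 5.12e-06). Every depleted library was above every control, although control replicate 2 was well above the other controls. Cdc6 had the largest log2 change of the named S phase genes, from a mean of 7.09 to 30.2 CPM (2.03, SE 0.25, adjusted p = 5.71e-06).

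Of the helicase ring, Mcm3 averaged 45.8 and 100.7 CPM (1.09, adjusted p = 8.43e-06), Mcm7 58.7 and 138.2 CPM (1.19, adjusted p = 1.01e-05) and Mcm5 47.8 ± 12.7 and 107.6 ± 20.5 CPM (1.12, adjusted p = 0.00177). Tyms, thymidylate synthase, was 54.9 to 86.3 CPM against 113.2 to 204.1 CPM (1.12, adjusted p = 0.000204), and cyclin E1, Ccne1, was 3.25 to 8.19 CPM against 13.1 to 19.7 CPM (1.40, adjusted p = 0.000804). Pcna showed the smallest change of the 11 genes followed in every library, 132.4 ± 18.2 against 190.8 ± 25.7 CPM (0.47, SE 0.13, adjusted p = 0.00978). The groups of Pcna were still apart: the lowest depleted library read 160.1 CPM and the highest control 158.2 CPM.

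**Figure D2:**
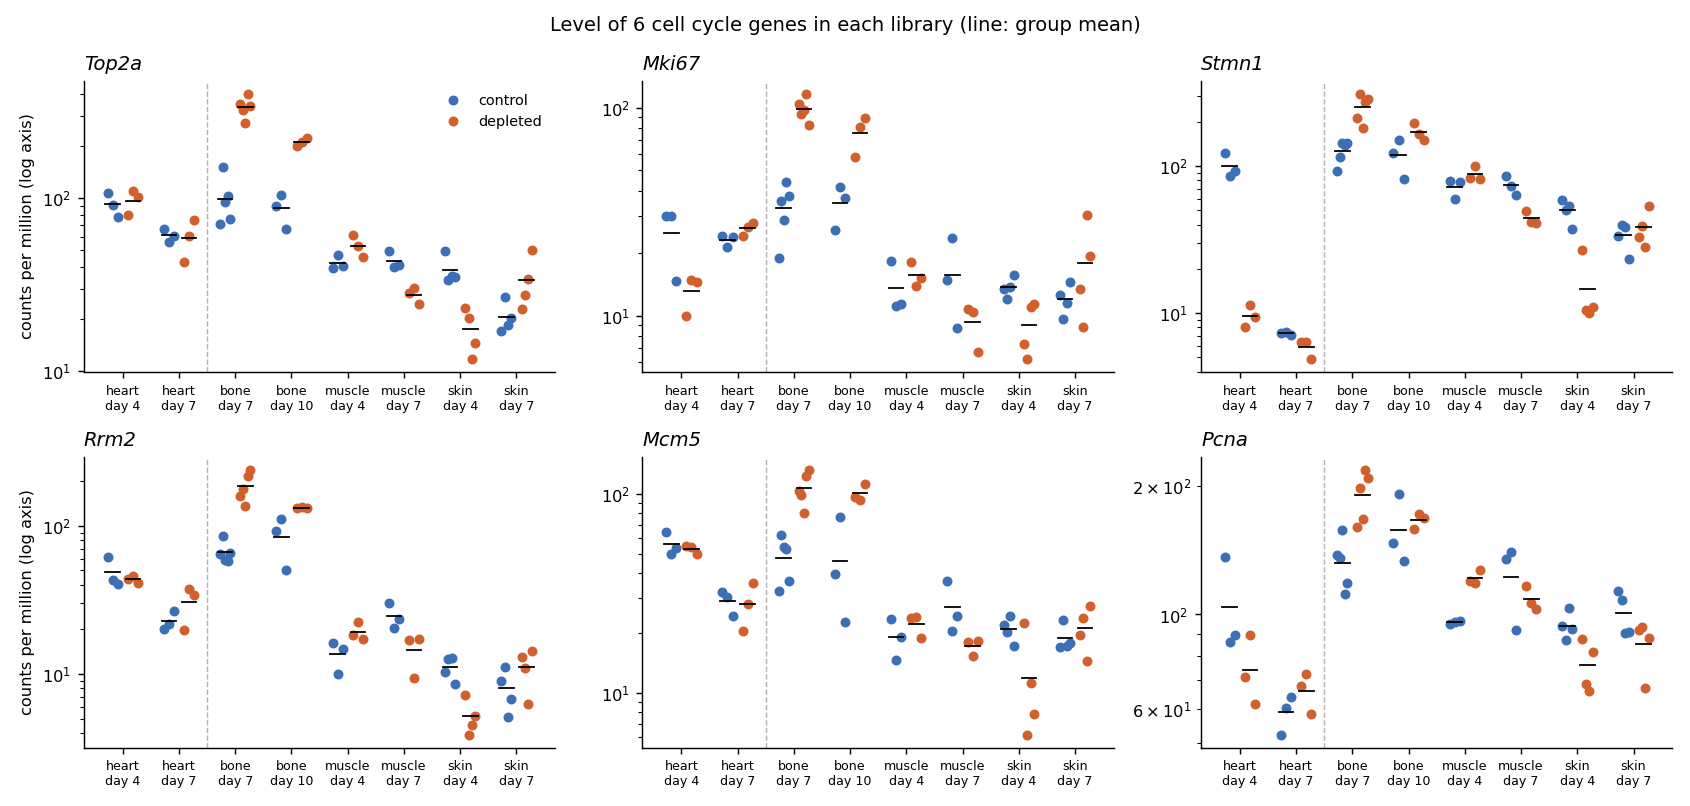
CPM (log axis) of Top2a, Mki67, Stmn1, Rrm2, Mcm5 and Pcna in each library of the 16 groups, with a line at each group mean and a dashed line setting off the heart table. In bone at day 7 the Top2a points lie at 272.0 to 400.7 CPM after depletion and at 70.8 to 152.1 CPM in controls, while Stmn1 stands high in heart in the day 4 controls alone among the 4 heart groups.

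The ratio of the mitosis sum to the S phase sum was 1.36 to 1.92 in control bone at day 7 and 1.95 to 2.02 after depletion, and at day 10 it was 1.34 to 1.36 against 1.64 to 1.79. The libraries of the arms did not overlap in this ratio on either day. Since it is a sum over chosen genes, it is given without a test.

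Genes outside the 50 from the same pathway lists moved likewise in bone at day 7. These lists were chosen with earlier results of these data known and were read in the same libraries, so they are not separate evidence. Of 36 tested other replication genes 31 were higher, among them Lig1, the replicative ligase (1.31, adjusted p = 1.66e-06). Of 55 other mitosis genes 52 were higher, among them the condensin subunit Smc2 (1.15, adjusted p = 1.13e-06) and the centromere guardian Sgo1 (1.98, adjusted p = 7.6e-06). Of 19 transcriptional regulators 10 were higher, with Tfdp1, the E2F partner, at 1.03 (adjusted p = 2.48e-05).

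The G1 genes were mixed, with 4 of 17 higher and 5 lower: the D-type cyclin Ccnd3 was higher (0.84, adjusted p = 0.00015) and the inhibitor Cdkn1a lower (-0.80, adjusted p = 0.000638). Of 9 genes around macrophage growth factor signalling, 7 were lower and 1 higher. Csf1r, the receptor of macrophage colony-stimulating factor, averaged 435.5 CPM in controls and 210.4 CPM after depletion (-1.09, adjusted p = 1.05e-05).

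Markers of other cells moved in bone as well. Of 12 monocyte and macrophage markers 8 were lower and 1, Ly6c2, was higher, and their sum was 16880 to 26840 CPM in controls and 12330 to 16700 CPM after depletion. Neutrophil markers were higher for 7 of 15, with sums of 6174 to 12220 and 10530 to 29350 CPM, and granulocyte precursor markers for 4 of 6, with sums of 715.7 to 1400 and 1142 to 2445 CPM. Mast cell, basophil and eosinophil markers, 6 of 10 higher, summed to 287.2 to 629.7 and 776.5 to 5313 CPM, and T and NK cell markers, 11 of 14 higher and 1 lower, to 130.3 to 147.7 and 200.5 to 460.2 CPM. Rn18s-rs5, a ribosomal RNA row, read 14230 to 77600 and 49310 to 103600 CPM. Dendritic cell markers, 2 of 3 tested lower, summed to 51.1 to 76.96 and 12.1 to 25.0 CPM, and fibroblast and mural cell markers, 2 of 10 lower, to 960.6 to 4014 and 133.5 to 1525 CPM. Erythroid markers were lower for 4 of 5, and B and plasma cell markers for 1 of 7. The part of these in the result was not tested.

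**Figure D3:**
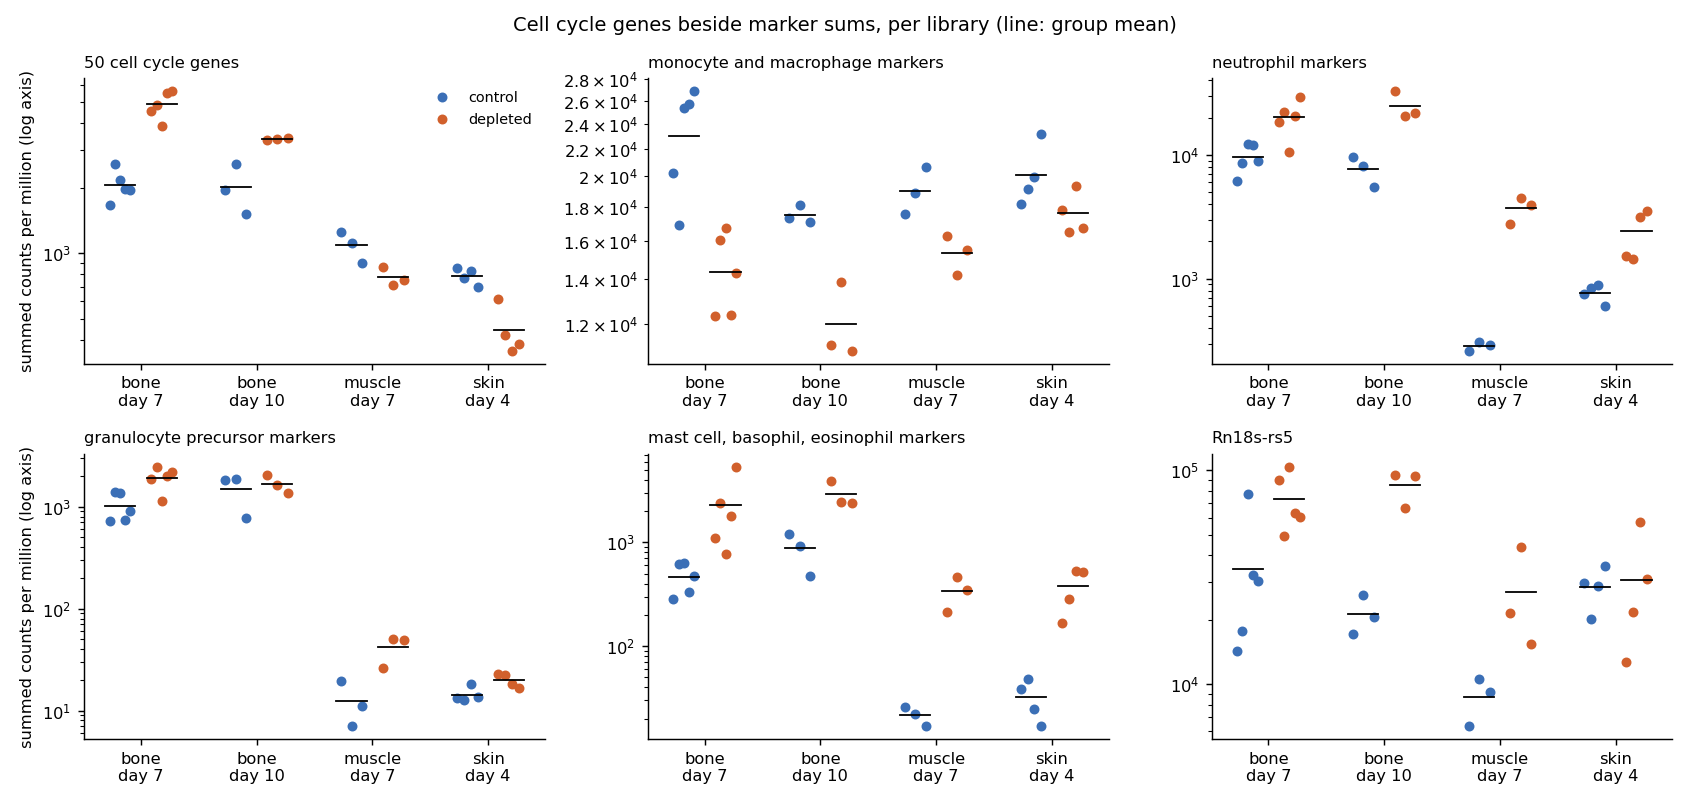
Summed CPM (log axis) of the 50 genes, of 4 marker lists and of Rn18s-rs5 in each library of bone at days 7 and 10, muscle at day 7 and skin at day 4. In bone at day 7 the 50 genes and the mast cell, basophil and eosinophil markers separate the arms, while the neutrophil and granulocyte precursor sums overlap.

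In bone at day 10 fewer genes were called higher than at day 7. Day 10 had fewer libraries in each arm, so these counts cannot show whether the increase itself became smaller. The direct test of the depletion effect between these days, given below, called none of the 50 genes. Of 50, 30 were higher and 0 lower, 20 of mitosis and 10 of S phase, where 8.95% of all tested genes were called higher and 17.2% in either direction. The median log2 change was 0.83. For 31 genes every depleted library was above every control, which held for 14.8% of all tested genes, and the libraries did not overlap in either direction for 35.9% of all tested genes.

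Top2a read 90.8, 105.1 and 66.7 CPM in controls and 200, 210.8 and 222.4 CPM after depletion (1.37, SE 0.21, adjusted p = 0.000295). Mki67 read 25.8, 41.6 and 36.7 CPM against 57.9, 80.9 and 89.2 CPM (1.24, SE 0.25, adjusted p = 0.00249). Kif11, the motor that pushes spindle poles apart, averaged 10.5 and 36.8 CPM (1.92, SE 0.30, adjusted p = 0.00036). In all 3 genes each depleted library was above each control.

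Among S phase genes, Mcm3 averaged 50.9 and 85.2 CPM (0.85, adjusted p = 0.00322), E2f8, a repressive E2F factor, 12.3 and 31.9 CPM (1.51, adjusted p = 0.00336), and Mcm5 46.3 ± 27.3 and 101.0 ± 10.1 CPM (SD, n = 3 each, 1.24, adjusted p = 0.0107). Rrm2 was 50.7 to 110.5 against 131.4 to 134.9 CPM (0.76, adjusted p = 0.0223). Stmn1, Tyms, Cdk1, Pcna and Ccne1 were not called (0.64, 0.56, 0.61, 0.19 and 0.13, adjusted p = 0.0713, 0.122, 0.204, 0.473 and 0.843). Pcna and Ccne1 overlapped between arms, at 133.4 to 192.1 against 158.7 to 172.1 CPM and 6.66 to 12.4 against 6.91 to 12.4 CPM.

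The count at day 10 leaned on control replicate 3, whose 50 genes summed lowest: without it 17 genes were called. Rn18s-rs5 separated the arms, 17100 to 26110 CPM in controls and 66980 to 94970 CPM after depletion. With its log2 level as a covariate 1 gene was called and the median was 0.70. Because the row separates the arms at day 10, that fit cannot tell it apart from the arm. At day 7, where the row overlapped between the arms, the same covariate left 38 genes called. Neutrophil marker sums were 5469 to 9613 and 20440 to 32510 CPM, with 9 of 15 markers higher, and macrophage sums, with 2 of 12 markers higher and 6 lower, were 17050 to 18090 and 10930 to 13870 CPM. Granulocyte precursor sums overlapped, at 780.9 to 1850 and 1354 to 2034 CPM, with 1 of 6 markers higher. Mast cell, basophil and eosinophil markers, 5 of 10 higher, summed to 473.2 to 1218 and 2375 to 3903 CPM, dendritic cell markers, 2 of 3 lower, to 108.8 to 172.9 and 25.6 to 43.1 CPM, and fibroblast and mural cell markers, none of 10 called, to 3308 to 6511 and 1808 to 2273 CPM. The part of these in the result was not tested.

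Outside the 50, 10 of 36 other replication genes and 29 of 55 other mitosis genes were higher at day 10, and 1 mitosis gene was lower. Ncapg, a condensin subunit, averaged 16.5 and 53.4 CPM (1.78, adjusted p = 0.000128). Rbl1, a relative of the retinoblastoma protein, averaged 4.30 and 17.7 CPM (2.15, adjusted p = 0.00102). The D-type cyclin Ccnd1 was lower, at 33.3 and 8.37 CPM (-1.89, adjusted p = 0.00627), as was Csf1r (-1.07, adjusted p = 0.000601).

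Skin at day 4 went the other way. Of 49 tested genes 14 were lower and 0 higher, where 1.45% of all tested genes were called lower and 3.57% in either direction. All 49 had a negative log2 change, with a median of -0.82. The share of all tested genes with a negative change was not counted. Of the 14, 11 were mitosis genes, and the 3 S phase genes were Mcm6, Tk1 and Uhrf1. Ttk, a checkpoint kinase, was too low in skin to be tested.

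Stmn1 read 59.0, 50.04, 53.6 and 37.5 CPM in control skin at day 4 and 27.0, 10.4, 10.1 and 11.0 CPM after depletion. The arms did not overlap, although depleted replicate 1 stood above the other 3, and the log2 change was -1.75 (SE 0.26, adjusted p = 0.000296). Top2a read 49.4, 33.9, 35.3 and 35.2 CPM against 23.1, 20.2, 11.8 and 14.4 CPM (-1.13, SE 0.22, adjusted p = 0.00442). Cdk1 read 13.5, 7.65, 14.3 and 8.63 CPM against 6.76, 3.91, 3.84 and 3.41 CPM (-1.28, SE 0.31, adjusted p = 0.018). In both genes every depleted library was below every control, which held for 5.67% of all tested genes. The arms did not overlap in either direction for 9.99% of all tested genes.

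Cenpe averaged 10.9 and 3.01 CPM (-1.84, SE 0.33, adjusted p = 0.0018) and Ccnb1, cyclin B1, 21.2 and 8.50 CPM (-1.28, SE 0.23, adjusted p = 0.00228). Birc5 was 25.2 to 37.4 CPM in controls and 4.32 to 20.3 CPM after depletion (-1.21, SE 0.27, adjusted p = 0.0135). Mcm6 of the helicase averaged 45.6 and 22.2 CPM (-1.03, adjusted p = 0.00709). Tk1, thymidine kinase, averaged 15.9 and 5.66 CPM (-1.43, adjusted p = 0.0101), and Uhrf1, which carries DNA methylation over to the new strand, 17.1 and 7.49 CPM (-1.17, adjusted p = 0.0278).

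Several of the genes followed in every library missed the threshold in skin at day 4. Rrm2 was 8.63 to 12.8 against 3.91 to 7.28 CPM (-1.04, adjusted p = 0.0522), Tyms 18.9 to 33.7 against 10.6 to 14.8 CPM (-0.80, adjusted p = 0.0564) and Ccnb2 6.87 to 14.4 against 1.20 to 6.52 CPM (-1.43, adjusted p = 0.0736), each without overlap. Mki67 was 12.1 to 15.6 against 6.198 to 11.4 CPM (-0.54, adjusted p = 0.41). Mcm5 overlapped because depleted replicate 1 read 22.6 CPM among 6.198, 11.3 and 7.82 CPM (-0.78, adjusted p = 0.14). Ccne1 was at 0 in 1 depleted library, where 3 counts would give 0.979 CPM.

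Leaving out depleted replicate 1 gave 18 lower genes, and leaving out depleted replicate 4, control replicate 1 or control replicate 3 gave 6, 7 or 8, and 6 of the 14 were called whichever library was left out. Neutrophil markers, of which 2 of 14 tested were higher, summed to 598.9 to 893.5 CPM in controls and 1438 to 3541 CPM after depletion. Mast cell, basophil and eosinophil markers, 4 of 10 higher, summed to 16.9 to 48.0 and 168.9 to 527.3 CPM. Ly6g of neutrophils and Epx of eosinophils were at 0 in the controls. Macrophage markers, 1 of 12 higher and 1 lower, summed to 18190 to 23180 and 16470 to 19340 CPM and overlapped. The part of other cells in the decrease was not tested. The mitosis to S phase ratio was 0.862 to 1.09 in controls and 0.628 to 0.841 after depletion.

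Other cycle genes in skin at day 4 gave fewer calls: 2 of 33 other replication genes and 7 of 43 other mitosis genes were lower, with Lig1 at -0.82 (adjusted p = 0.0053) and Smc2 at -0.96 (adjusted p = 0.00136). Ccnd1 averaged 58.1 and 22.8 CPM (-1.34, adjusted p = 0.00188). The growth factor gene Csf1, which encodes macrophage colony-stimulating factor, was higher, at 12.2 and 42.1 CPM (1.84, adjusted p = 0.000104).

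In skin at day 7 no gene of the 49 was called by edgeR, 6 had an unadjusted p under 0.05 and DESeq2 called 1, where 6.21% of all tested genes were called. The median log2 change was 0.13. Top2a read 17.0, 26.7, 18.4 and 20.3 CPM in controls and 22.9, 27.6, 34.0 and 50.4 CPM after depletion, with overlap (0.73, SE 0.22, adjusted p = 0.0512). Tyms was the other near miss, at 15.1 to 28.8 against 29.7 to 38.0 CPM without overlap (0.66, adjusted p = 0.0812). Every depleted library was above every control for 4.57% of all tested genes.

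In muscle at day 4 no gene of the 50 was called by edgeR or DESeq2, 7 had an unadjusted p under 0.05, and only 0.155% of all tested genes were called. The log2 changes were positive for 43 of 50, with a median of 0.25. The shares of all tested genes with a positive change or an unadjusted p under 0.05 were not counted. Pcna read 95.0, 96.0 and 96.6 CPM in controls and 120.0, 118.7 and 127.0 CPM after depletion, without overlap (0.32, adjusted p = 0.522). Tyms read 23.2, 17.1 and 25.3 against 28.3, 31.8 and 33.8 CPM (0.50, adjusted p = 0.485), also without overlap. Every depleted library was above every control for 7.9% of all tested genes, and the arms did not overlap in either direction for 14.4%.

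In muscle at day 7, 5 of 50 genes were lower and 0 higher, where 3.92% of all tested genes were called lower and 8.59% in either direction. The median was -0.37. Stmn1 read 85.5, 72.8 and 63.7 CPM in controls and 49.8, 41.7 and 41.1 CPM after depletion (-0.62, SE 0.16, adjusted p = 0.0179). Birc5 read 43.3, 45.2 and 43.0 against 29.6, 25.3 and 29.8 CPM (-0.51, adjusted p = 0.0445). Top2a read 49.3, 40.0 and 41.0 against 28.4, 30.3 and 24.3 CPM (-0.53, adjusted p = 0.046). None of these 3 genes overlapped between the arms. Every depleted library was below every control for 18.5% of all tested genes, and the arms did not overlap in either direction for 25.7%.

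The other 2 were Cdc20, at means of 10.6 and 4.93 CPM (-0.97, adjusted p = 0.0219), and Cdc6, at 7.95 and 2.98 CPM (-1.28, adjusted p = 0.0256). Leaving out any library left 1 to 3 genes called, and none of the 5 was called in all of those fits. Scaling by library totals gave 9 lower genes. Neutrophil markers, of which 8 of 14 tested were higher, summed to 262.6 to 306.3 CPM in controls and 2752 to 4491 CPM after depletion. Mast cell, basophil and eosinophil markers, 4 of 6 higher, summed to 16.9 to 25.9 and 211.5 to 463.6 CPM, with Epx at 0 in controls. Macrophage markers, 1 of 12 higher and 1 lower, summed to 17530 to 20660 and 14220 to 16240 CPM. Granulocyte precursor markers, 2 of 2 tested higher, summed to 6.99 to 19.5 and 26.4 to 50.6 CPM, dendritic cell markers, 1 of 4 lower, to 108.2 to 156 and 47.6 to 61.99 CPM, and B and plasma cell markers, 2 of 3 lower, to 150.7 to 191.9 and 54.6 to 88.6 CPM. Their part in the decrease was not tested. Outside the 50, 3 of 53 other mitosis genes were lower and 2 higher, and Gadd45a, which responds to stress and slows the cycle, averaged 4.23 and 35.1 CPM (3.19, adjusted p = 4.31e-05).

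**Figure D4:**
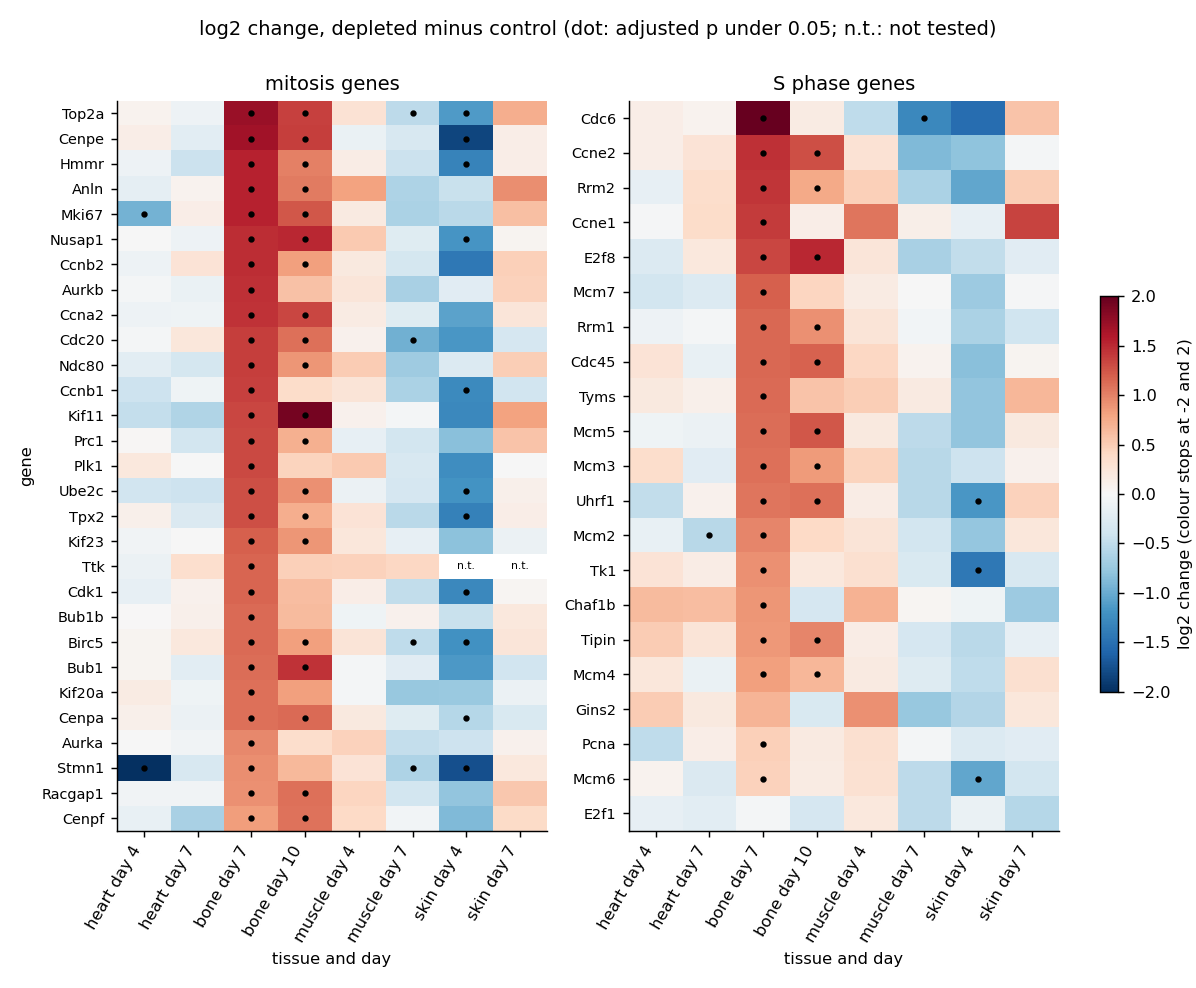
Log2 change, depleted against control, of the 50 genes (rows) in the 8 comparisons of tissue and day (columns), with a dot where the adjusted p is under 0.05 and colours ending at -2 and 2. Bone at days 7 and 10 holds 48 and 30 dots with higher levels, skin at day 4 holds 14 and muscle at day 7 holds 5 with lower levels, and Ttk was not tested in skin.

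In heart few of these genes were called between the arms, and the counts were near or below the shares for all tested genes. The day 4 controls used here are the libraries that stood apart. At day 4, 2 of 50 were lower and 0 higher, where 6.85% of all tested genes were called lower, and the median was -0.04. At day 7, 1 was lower, where 1.56% of all tested genes were called lower, and the median was -0.08. Top2a read 107.4, 91.4 and 78.0 CPM in controls and 79.5, 110.1 and 101.7 CPM after depletion at day 4 (0.06, adjusted p = 0.849). Mcm5 read 64.4, 50.04 and 53.7 against 55.1, 54.5 and 49.9 CPM (-0.08, adjusted p = 0.811), and Birc5 was 73.7 to 96.5 against 80.4 to 92.4 CPM (0.05, adjusted p = 0.888). All 3 overlapped between the arms.

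Stmn1, at chr4:134468320-134473843 on the plus strand of GRCm38, differed at day 4, at 123.7, 85.9 and 92.2 CPM in controls and 8.02, 11.4 and 9.43 CPM after depletion (-3.42, SE 0.19, adjusted p = 2.53e-11). At day 7 it read 7.37, 7.46 and 7.07 CPM in controls and 6.34, 6.39 and 4.90 CPM after depletion, so the day 4 controls alone were high. These are the libraries in which 58 genes stood apart, and whether the Stmn1 difference belongs to the cells or to those libraries cannot be told apart here. The gene sharing most sequence with Stmn1, Gm11223, had 0 counts in 11 of the 12 heart libraries.

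Mki67, the other called gene, read 30.3, 30.0 and 14.8 CPM in the controls and 9.99, 14.8 and 14.6 CPM after depletion (-0.95, SE 0.22, adjusted p = 0.0089). The third control read as low as the depleted libraries, and the gene was called in 3 of 6 fits that left out 1 library. These controls are also the libraries that stood apart. At day 7 Mki67 was 21.4 to 24.2 and 24.3 to 28.0 CPM (0.14, adjusted p = 0.773). Mcm2 was the gene called at day 7, at 50.3 and 35.2 CPM (-0.56, SE 0.13, adjusted p = 0.0302), and in some of the fits that left out 1 library no gene was called.

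In heart most of the 50 genes fell over time. From day 4 to day 7, 29 of 50 fell in controls and 34 fell after depletion, with 1 higher in each, where 16.9% and 13.7% of all tested genes were called lower. The day 4 controls here are the libraries that stood apart, and day 7 was inferred for columns that name no day. In controls neutrophil markers fell for 12 of 14 tested, with sums of 1116 to 1542 CPM at day 4 and 311.4 to 386 CPM at day 7. Dendritic cell markers fell for 2 of 3, with sums of 44.0 to 45.99 and 13.8 to 14.7 CPM, and macrophage markers rose for 5 of 12 and fell for 2, with sums of 25380 to 29830 and 37670 to 45420 CPM. After depletion the neutrophil sums overlapped, at 1377 to 1648 and 879.1 to 1580 CPM, as did the macrophage sums, at 30570 to 37050 and 32130 to 38610 CPM. The part of these in the fall was not tested. Mcm5 fell from 56.0 ± 7.43 to 29.1 ± 4.19 CPM in controls (SD, n = 3 each, -1.02, adjusted p = 0.000131) and from 53.2 ± 2.85 to 28.1 ± 7.61 CPM after depletion (-1.06, adjusted p = 0.000231). Tyms fell from 48.3 ± 2.75 to 29.6 ± 2.07 CPM (-0.78, adjusted p = 0.000249) and from 55.3 ± 6.06 to 32.5 ± 3.03 CPM (-0.88, adjusted p = 0.000189). Top2a fell in both arms as well (-0.67, adjusted p = 0.00332, and -0.84, adjusted p = 0.000942).

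Uhrf1 in heart fell from 23.9 to 8.92 CPM in controls (-1.49, adjusted p = 1.24e-05), and Mcm6 from 120.2 to 68.5 CPM after depletion (-0.94, adjusted p = 4.52e-05). Ube2c, the ubiquitin-conjugating partner of the anaphase-promoting complex, fell in both arms (-1.04, adjusted p = 0.000165, and -1.06, adjusted p = 0.000369). The gene higher at day 7 was Cenpf, a kinetochore protein, in controls (0.66, adjusted p = 0.0338) and Mki67 after depletion (0.91, adjusted p = 0.00491). Other replication genes fell for 11 of 37 in controls and 19 of 37 after depletion, and other mitosis genes for 22 and 23 of 54.

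In bone, no gene was called between days 7 and 10 in controls by edgeR, 2 had an unadjusted p under 0.05 and 0.0393% of all tested genes were called. After depletion 13 of 50 fell and 0 rose, where 5.04% of all tested genes were called lower. Ccnb1 fell from 198.5 to 83.3 CPM (-1.18, adjusted p = 0.00394), the spindle midzone protein Prc1 from 250 to 118.5 CPM (-1.01, adjusted p = 0.00458), Mcm7 from 138.2 to 74.2 CPM (-0.83, adjusted p = 0.00522) and Cdc6 from 30.2 to 11.7 CPM (-1.31, adjusted p = 0.00527). Between 6 and 16 genes fell when single libraries were left out.

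In muscle from day 4 to 7, 3 S phase genes rose in controls, Mcm3, Ccne1 and the chromatin assembly subunit Chaf1b (0.64, 1.59 and 0.90, adjusted p = 0.0396, 0.0404 and 0.0497), where 4.49% of all tested genes were called higher, and leaving out single libraries gave 0 to 3. After depletion 13 genes fell, where 8.72% of all tested genes were called lower, 12 of them mitosis genes. Birc5 fell from 56.0 ± 1.89 to 28.2 ± 2.54 CPM (-0.90, adjusted p = 0.000297) and Stmn1 from 88.2 ± 10.4 to 44.2 ± 4.87 CPM (-0.91, adjusted p = 0.000361). The S phase gene that fell was Gins2 (-0.81, adjusted p = 0.0361).

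In skin Top2a moved in opposite directions in the arms. It fell in controls, from 38.4 ± 7.34 to 20.6 ± 4.30 CPM (-0.92, adjusted p = 0.0246), the only gene called there, where 0.848% of all tested genes were called lower. After depletion 7 genes rose and 0 fell, where 1.36% of all tested genes were called higher. Tyms rose from 13.2 ± 1.84 to 33.2 ± 3.46 CPM (1.28, adjusted p = 0.00263), Stmn1 from 14.6 ± 8.27 to 38.5 ± 10.9 CPM (1.36, adjusted p = 0.0051) and Top2a from 17.4 ± 5.21 to 33.7 ± 12.02 CPM (0.93, adjusted p = 0.0227). Leaving out single libraries gave 2 to 9 genes.

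**Figure D5:**
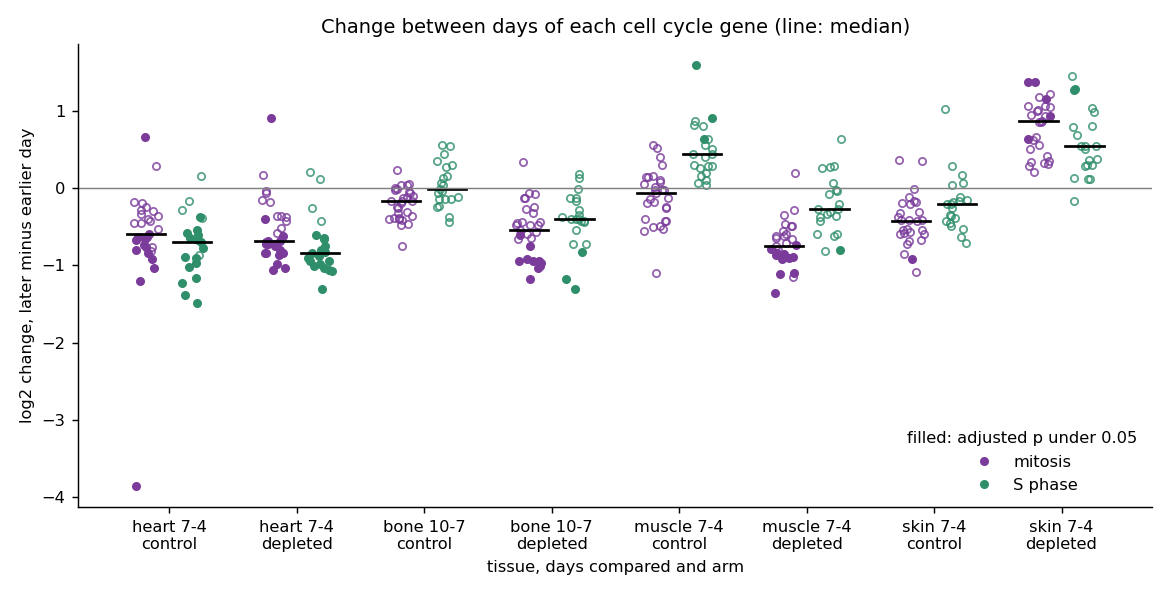
Log2 change of each of the 50 genes from the earlier to the later day (vertical axis) in the 4 tissues and 2 arms, with called genes filled and a line at the median. In heart 29 and 34 genes fell, in control bone none was called, and in skin 7 genes rose after depletion.

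The change in the depletion effect between days was tested directly. In skin it was higher at day 7 than at day 4 for 4 genes, Top2a (1.86, SE 0.31, adjusted p = 0.00507), Stmn1 (1.97, adjusted p = 0.00919), Cenpe (1.97, adjusted p = 0.0341) and Tyms (1.46, adjusted p = 0.0267), where 0.848% of all tested genes were called. In muscle it was lower at day 7 for Gins2, Stmn1 and Mcm3 (-1.67, -0.89 and -1.01, adjusted p = 0.0223, 0.0386 and 0.0474), where 2.41% were called. In heart it was higher for Stmn1 (3.10, adjusted p = 1.15e-07) and Mki67 (1.09, adjusted p = 0.0471), where 4.09% were called. The heart count is near that share of all tested genes. This heart test includes the day 4 controls that stood apart, and Mki67 was called in 1 of 12 fits that left out 1 library. In bone no gene of the 50, and 0% of all tested genes, differed between days by edgeR, with 9 of the 50 at an unadjusted p under 0.05 and 1 called by DESeq2.

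Among controls alone, the tissues differed. At day 7 the 50 genes were higher in bone than in muscle for 34 genes and lower for 0, where 6.28% of all tested genes were called higher, and higher in bone than in skin for 45 genes, where 11.5% were. Nusap1 averaged 85.0 CPM in bone, 18.1 in muscle and 10.8 in skin (bone against muscle 2.25, adjusted p = 8.44e-11, and bone against skin 2.92, adjusted p = 2.76e-15). Rrm2 averaged 66.5, 24.8 and 8.00 CPM (1.44, adjusted p = 1.3e-05, and 2.97, adjusted p = 3.02e-13).

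The 5 genes not called between control bone and skin were Cdc6, E2f1, Chaf1b, Mcm2 and Gins2, all of S phase. Pcna differed little, at 132.4 CPM in bone, 122.4 in muscle and 100.8 in skin (0.15, adjusted p = 0.538, and 0.35, adjusted p = 0.0365). Muscle was above skin for 16 genes at day 7, where 5.17% of all tested genes were called higher, and for 4 at day 4, where 5.51% were. Those 4 were Cenpa, the centromeric histone, Aurkb, Cdc20 and Nusap1 (0.76, 0.88, 0.82 and 0.64, adjusted p = 0.00452, 0.0298, 0.0305 and 0.0393). Markers of other cells differed with the tissue. Granulocyte precursor markers, higher in control bone for 5 of 6 against muscle and 5 of 6 against skin at day 7, summed to 715.7 to 1400 CPM in bone. The sums were 6.99 to 19.5 CPM in muscle, and skin had 9.25 to 16.5 CPM. Neutrophil markers, higher in bone for 11 and 9 of 15, summed to 6174 to 12220, 262.6 to 306.3 and 1289 to 2245 CPM in these tissues in the same order. Their part in the tissue differences was not tested, and tissue and handling cannot be told apart.

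The depletion effect itself differed between tissues. At day 7 it was higher in bone than in muscle for 41 of 50 genes, where 3.09% of all tested genes were called higher, and higher in bone than in skin for 25, where 3.79% were. For Top2a the differences were 2.26 (SE 0.27, adjusted p = 3.69e-07) and 1.02 (SE 0.25, adjusted p = 0.00567). Cdc6 differed by 3.33 (SE 0.48, adjusted p = 9.94e-06) between bone and muscle, and Rrm1, the large ribonucleotide reductase subunit, by 1.57 (SE 0.24, adjusted p = 2.19e-05) between bone and skin. Both comparisons use the same bone libraries.

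At day 4 the effect was higher in muscle than in skin for 7 genes, where 0.16% of all tested genes were called higher, among them Stmn1 (2.02, SE 0.35, adjusted p = 0.00174), Nusap1 (1.72, adjusted p = 0.0047), Mcm6 (1.33, adjusted p = 0.0276) and Tk1 (1.75, adjusted p = 0.0453). Leaving out single libraries gave 2 to 13. At day 7 it was lower in muscle than in skin for 2 genes, Top2a (-1.24, adjusted p = 0.00751) and Cdc6 (-1.84, adjusted p = 0.0384), where 0.516% of all tested genes were called lower.

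Some of these genes share sequence with other loci, and how reads were assigned there is not given in the sources used here. At least 0.05 of the 31-base words of 15 genes, among them Pcna, Rrm2, Tyms, Stmn1, Ccnb1 and Cdc20, occur elsewhere in the transcripts. Over the 35 without such copies, 33 were higher in bone at day 7 and 22 at day 10, 10 of 34 tested were lower in skin at day 4 and 2 were lower in muscle at day 7. The strand of counting is not stated either. Exons of Nusap1, Cdc20, Tk1, Prc1, Mcm7, Gins2, Kif20a, E2f8, Ccne2, Ube2c, Ccna2, Cdc45 and Plk1 overlap a gene on the other strand. Their reads could include that gene.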

How the data were processed

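The heart table holds whole counts per gene and the other table estimated counts, as the authors deposited them. Both kinds of count are unnormalized. Per the submitters' processing notes STAR, Salmon, featureCounts and limma were used; the notes list GRCm38 for heart and both GRCm38 and GRCm39 for the other tissues. In the estimated counts 19.4% of values above 0 lie more than 0.01 from a whole number, and values were rounded before fitting. Each tissue was fitted over its 4 groups with edgeR 4.0.16 (R 4.3.3, limma 3.58.1): filterByExpr, TMM scaling, robust quasi-likelihood, Benjamini-Hochberg over all tested genes (11339 in heart, 12709 in bone, 12907 in muscle, 12616 in skin). Tissues other than heart were compared in a joint fit of 14340 genes. The fit was tested on simulated data with 200 changed genes. DESeq2 1.42.0 and other settings served as alternatives. CPM uses library totals. Precision is limited by 3 to 5 libraries a group and by the depths given above. The heart columns name libraries W1 or FDG1 and the like and carry no label replicate number. The heart columns used as day 7 name no day, and were assigned to it because the day 4 columns name theirs.

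The 50 genes, the marker lists and the 5 companion lists were chosen with earlier results of these data known. Genes named are 11 followed in every library, the called genes with the smallest adjusted p of each class (at most 4 a comparison), those called in the opposite direction, those not called where at most 5 were not, and at most 4 called genes of each companion list. Roles in the cycle are background. Replicates differed beyond counting noise in every pair, with a chi-square per degree of freedom of 5.47 to 28.8.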

Additional observations from a re-analysis of the deposited data

Results flagged for a closer look

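In groups of 4 or 5 libraries, 7 of 78 checks found 1 library far from the others by Dixon's criterion, and chance gives about 1 in 20. The checks are not independent, since the sums hold the single genes and several flags come from the same library. An excess over chance cannot be read from this count. Control replicate 2 of bone at day 7 had Rrm2 at 85.9 CPM. In skin at day 4, control replicate 1 had Top2a at 49.4 CPM and control replicate 3 had Tyms at 33.7 CPM. Depleted replicate 1 of the same tissue and day stood above its group in the S phase sum (357.4 CPM), Cdk1 (6.76 CPM) and Stmn1 (27.0 CPM). Control replicate 2 of skin at day 7 had Mcm5 at 23.4 CPM.

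The depletion effect differed between days by edgeR's test of the difference for 2 genes in heart, Mki67 (1.09, adjusted p = 0.0471) and Stmn1 (3.10, adjusted p = 1.15e-07), where 4.09% of all tested genes were called. The heart count is near that share of all tested genes, and the heart test includes the day 4 controls that stood apart. The effect differed for 3 genes in muscle, including Stmn1 (-0.89), where 2.41% were called. In skin 4 genes differed, including Top2a (1.86), Stmn1 (1.97) and Tyms (1.46), where 0.848% were called.

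Between bone and muscle at day 7 the effect differed for 41 genes, including Mki67 (2.19), Top2a (2.26), Cdk1 (1.67), Ccnb2 (1.84), Birc5 (1.66), Stmn1 (1.57), Mcm5 (1.66), Rrm2 (2.08) and Tyms (0.97), where 8.28% of all tested genes were called. Between bone and skin at day 7 it differed for 25, including Top2a (1.02), Cdk1 (1.15), Birc5 (0.93), Pcna (0.72) and Rrm2 (0.99), where 9.37% were called. Between muscle and skin it differed for 2 at day 7, including Top2a (-1.24), where 2.78% were called. At day 4 it differed for 7, including Top2a (1.42), Birc5 (1.46) and Stmn1 (2.02), where 0.265% were called.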

How the results depend on the processing

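Counts below are of the 50 genes called. Bone at day 7 kept 46 to 48 genes when single libraries were left out, and 46 of the 48 were called in each of those fits. The other 2 were Chaf1b and Mcm6, called in 4 and 5 of the 10 fits. Bone at day 10 gave 17 to 30, skin at day 4 gave 6 to 18, skin at day 7 gave 0 to 1, muscle at day 7 gave 1 to 3, heart at day 4 gave 1 to 3 and heart at day 7 gave 0 to 1. Day changes gave 23 to 30 in control and 25 to 36 in depleted heart, 6 to 16 in depleted bone, 0 to 3 in control and 7 to 12 in depleted muscle, and 0 to 1 in control and 2 to 9 in depleted skin. The change of the depletion effect with day gave 1 to 2 in heart, 0 to 3 in muscle and 2 to 9 in skin. Control tissues gave 27 to 36 for bone against muscle, 44 to 45 for bone against skin, and 5 to 15 and 2 to 3 for muscle against skin at days 7 and 4. The depletion effects gave 30 to 42 for bone against muscle, 17 to 26 for bone against skin, and 1 to 3 and 2 to 13 for muscle against skin at days 7 and 4.

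With DESeq2 the counts that moved by over 1.5 times were depletion by day in bone (1 against 0), muscle (5 against 3) and skin (9 against 4), the day change in control muscle (5 against 3) and depleted skin (11 against 7), and depletion in skin at day 7 (1 against 0). With RLE scaling depletion gave 3 in muscle at day 7 and 1 in skin at day 7. With library totals alone it gave 0 in heart at day 7 and 9 in muscle at day 7, depletion by day gave 1 in heart and 5 in muscle, the day change in control skin gave 0, and muscle against skin at day 4 gave 3. That scaling moved the median of all genes by more than 0.1 in 7 comparisons, among them bone at day 10 (-0.104) and muscle at day 7 (-0.127). With no filter on low counts depletion gave 4 and 2 in heart at days 4 and 7, 3 in muscle at day 7 and 1 in skin at day 7, day changes gave 22 in depleted bone and 13 in depleted skin, depletion by day gave 2 in bone and 9 in skin, and muscle against skin at day 4 gave 7 in controls and 13 for the depletion effect. With the compared groups alone in the fit, heart at day 7 gave 0 and muscle at day 7 gave 2. With Rn18s-rs5 as a covariate bone at day 10 gave 1, in a fit where that row separates the arms. The cause of these moves was not tested.

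Whether replicate numbers of the labels pair the samples is not settled: same-numbered libraries' deviations correlated at -0.15 to 0.21. With the replicate number as a block, muscle at day 7 gave 1 gene against 5 and skin at day 7 gave 1 against 0, while bone at days 7 and 10 gave 47 and 31, skin at day 4 gave 13 and muscle at day 4 gave 0. In bone at day 10 all 3 libraries, and in skin at day 7 3 of 4, correlated best with their own number, as a hint from the data. Heart columns carry no number, so no block was fitted there.

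Of single-gene results under other settings 2070 kept their side and direction, 121 lost the call, 19 gained it and 4 changed sign, none of them called: Ccne1 in heart at day 4 without the filter (0.0021), Ccne1 in muscle at day 7 with library totals (-0.013), and Pcna (-0.033) and Ccne1 (-0.070) in bone at day 10 with the Rn18s-rs5 covariate. With single libraries left out 24 of 4055 changed sign, none called. Their ranges were -0.27 to 0.052 for Top2a, -0.29 to 0.039 for Mcm5 and -0.098 to 0.24 for Cdk1 in heart at day 7. In heart at day 4 they were -0.055 to 0.13 for Birc5, -0.21 to 0.23 for Ccne1, -0.013 to 0.17 for Top2a, -0.34 to 0.096 for Cdk1, -0.17 to 0.012 for Mcm5 and -0.25 to 0.035 for Rrm2. For Ccne1 they were -0.20 to 0.38 in bone at day 10, -0.011 to 0.32 in muscle at day 7 and -0.93 to 0.21 in skin at day 4, for Pcna -0.17 to 0.050 in muscle at day 7 and for Cdk1 -0.093 to 0.30 in skin at day 7.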
